A study of Mus musculus with 9 samples.

Results

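Hearts of mice carrying 1 frameshift allele of Rbm20 were compared with hearts of wild-type mice. All libraries titled as heterozygous or wild-type hearts were used, which gave 3 heterozygous and 3 wild-type libraries of the 9 libraries in the series. The edited allele was made with CRISPR/Cas and lacks 2 bases of the coding sequence, written c.1121_1122delAG, which shifts the reading frame at codon 374 (Q374Rfs). Wild-type mice carried 2 unedited alleles, heterozygous mice 1 edited allele, and the 3 homozygous libraries, which are given beside the comparison, came from mice with the edit on both alleles. All mice were 12 weeks old, RNA came from hearts, and the sources used here name no strain, sex or number of founder animals. Whether every library is a different mouse is not stated, and the tests therefore see only the variation among these libraries, which may be technical.

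RBM20 is an RNA-binding protein of striated muscle that binds introns of its target transcripts and represses the use of the neighbouring exons. Its best known target is Ttn, which encodes titin, the giant protein that spans the sarcomere and gives heart muscle its passive elasticity. Loss of RBM20 function leaves more exons in titin and lengthens its elastic segment, and variants of human RBM20 cause dilated cardiomyopathy with arrhythmia.

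Splicing was read as the percent spliced in (PSI) of exonic parts, which are exons cut at every annotated exon boundary. A PSI of 1 means that the part was always included and 0 that it was always skipped. A part was tested if each library had 10 or more reads for or against it and if it was not constantly included or skipped. The 9 libraries held 297 to 323 M inclusion reads and 52.6 to 62.3 M exclusion reads, with 16.9% to 19.7% of inclusion reads in mitochondrial genes. Markers of cardiomyocytes were abundant in all libraries, with summed levels of 52190 to 63440 CPM (read counts scaled to the size of each library) over 9 genes, which matches the label heart. One library stood apart. Heterozygous replicate 3 held 57 genes that were over 2-fold above all other 8 libraries at 1 CPM or more, 6 of them from the atrial marker list, where each other library held 0 to 10 such genes and no atrial marker. Results that rest on this library are given with and without it.

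The edited site and its surroundings are shown because they define the allele that all comparisons rest on. The deletion falls in exon 2 of the coding transcript Rbm20-203, on chromosome 19, in part 4 of the deposited table. Exon 2 has 1093 bases and is split into parts 3 and 4, at chr19:53801679-53802771 on the plus strand of GRCm39. Both sequences below read from 5′ to 3′ along the coding strand, with 30 bases on each side of the deleted bases, which are in capitals in the first.
Rbm20, unedited: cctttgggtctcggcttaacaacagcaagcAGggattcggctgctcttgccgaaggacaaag
Rbm20, edited: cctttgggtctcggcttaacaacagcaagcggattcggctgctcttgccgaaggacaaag
The unedited codon 374 reads CAG. In the shifted frame of this transcript the first stop codon is codon 418, where the unedited frame ends at codon 1200. The sequence comes from the GENCODE M21 transcripts.

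Rbm20 itself was measured in every library first. Its level, from inclusion reads summed over the gene, was 104.8, 103.7 and 131.9 CPM in wild-type hearts and 85.5, 68.4 and 90.2 CPM in heterozygous hearts. The 3 homozygous libraries held 66.0, 51.8 and 54.7 CPM. All heterozygous libraries lay below all wild-type libraries, as for 4.43% of the 22049 genes tested, and above the homozygous libraries. The log2 fold change of heterozygous against wild-type was -0.48 (SE 0.138, unadjusted p = 0.0052, n = 3 each), and the adjusted p of edgeR's quasi-likelihood test was 1, with 0.0596 as the lowest over 16 alternatives. The estimate was thus lower in 3 of 3 libraries and did not pass the test. No deletion of 2 bases can be read from a count table, so these levels do not check the genotypes. Among the exonic parts of Rbm20, part 1 had the smallest p, with PSI of 0.892, 0.905 and 0.896 in wild-type and 0.874, 0.836 and 0.871 in heterozygous hearts (difference -0.0373, adjusted p = 0.968).

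Across the transcriptome, few parts changed in heterozygous hearts, and most of them were in Ttn. Of 55648 parts tested, limma called 42 (0.0755%), where a call needs an adjusted p below 0.05 together with a shift in PSI of 0.1 or more, and 41 (0.0737%) were higher and 1 (0.0018%) was lower. They lay in 12 gene identifiers. Without adjustment, 2248 parts had a p below 0.05. The count of calls moved with single libraries. It was 3 when heterozygous replicate 1 was left out, 25 when wild-type replicate 3 was, and 40 when heterozygous replicate 3 was. Leaving out homozygous replicate 1, 2 or 3, whose spread enters the fit, gave 23, 18 and 18. With only the 2 groups in the fit it was 0 by limma, with 2709 parts at an unadjusted p below 0.05, and on the logit scale it was 15, with none in Ttn.

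Ttn (ENSMUSG00000051747, chromosome 2, minus strand) held 27 of the called parts, all higher in heterozygous hearts, by 0.401 to 0.8 in PSI. The exon with the largest difference, part 293, and an exon that stayed mostly skipped in heterozygous hearts, part 250, are shown as examples. Part 250 was not the least changed, as the median difference of parts 161 to 229 was 0.0144. Both sequences shown here read from 5′ to 3′ along the coding strand. Their exon edges were matched, at a single coordinate shift over the gene, to GENCODE M21 transcripts of Ttn, of which 5 hold each exon.
Ttn part 293, chr2:76715469-76715747: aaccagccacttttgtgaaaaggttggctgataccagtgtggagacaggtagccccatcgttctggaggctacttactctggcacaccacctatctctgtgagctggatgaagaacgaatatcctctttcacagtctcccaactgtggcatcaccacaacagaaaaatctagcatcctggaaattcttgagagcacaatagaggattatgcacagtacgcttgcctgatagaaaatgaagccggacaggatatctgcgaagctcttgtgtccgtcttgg
Ttn part 250, chr2:76687147-76687248: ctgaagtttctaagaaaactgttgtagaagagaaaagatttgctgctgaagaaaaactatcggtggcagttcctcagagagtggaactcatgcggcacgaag
Coordinates are those of the deposited table on GRCm39, and no letters are in capitals here.

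Part 293 (279 bases) was nearly absent from wild-type hearts, with PSI of 0.0446, 0.00804 and 0.0467, and was included in most transcripts of heterozygous hearts, with PSI of 0.83, 0.907 and 0.762. The homozygous libraries had 0.885, 1 and 1. The wild-type and heterozygous groups were far apart and the difference was 0.8 (SE 0.0562, adjusted p = 0.00432, n = 3 each). Part 250 (102 bases) behaved otherwise, with PSI of 0.00961, 0.00284 and 0 in wild-type, 0.0318, 0.129 and 0.0959 in heterozygous and 0.973, 1 and 1 in homozygous hearts. Its difference between heterozygous and wild-type hearts was 0.0814 and was not called (SE 0.0377, adjusted p = 0.968), although its heterozygous libraries all lay above the wild-type ones.

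Along the gene, the heterozygous libraries followed either the homozygous or the wild-type level, or lay between them, in runs of neighbouring parts. The runs described here were drawn after the values were seen, and neighbouring parts share junction reads, so they are not independent. In parts 290 to 312 (chr2:76714254-76724767), 21 of 23 tested parts were called. Their median PSI per library was 0.132, 0.0116 and 0.0847 in wild-type, 0.826, 0.911 and 0.735 in heterozygous and 0.914, 1 and 1 in homozygous hearts. Within this run parts 300 and 310 were not called. Part 310 had a difference of 0.654 (adjusted p = 0.0907), with wild-type values of 0.377, 0.0184 and 0.077. Part 300 (135 bases) was mostly skipped in every group, with PSI of 0.054, 0 and 0.0809 in wild-type, 0.225, 0.356 and 0.19 in heterozygous and 0.187, 0.213 and 0.0586 in homozygous hearts.

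The next run, parts 313 to 330, was intermediate. Its median PSI per library was 0.0552, 0.00712 and 0.0332 in wild-type, 0.312, 0.336 and 0.305 in heterozygous and 0.908, 1 and 1 in homozygous hearts. All of its 18 parts had heterozygous libraries above the wild-type ones, where 4.17% of all tested parts did. The count was also 18 with the shared exclusion reads of wild-type replicate 2, described below, subtracted. By limma 0 were called in the heterozygous comparison, where the smallest adjusted p was 0.0907, while the 18 were called in the homozygous one. Beyond it, parts 331 and 332 were called again, part 332 (564 bases) from 0.236, 0.0225 and 0.138 in wild-type to 0.834, 0.948 and 0.839 in heterozygous hearts (difference 0.742, adjusted p = 0.00805).

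Parts 161 to 229 showed the opposite picture. Their exons are short, with a median of 78 bases against 279 bases in parts 290 to 312, and heterozygous hearts skipped most of them as wild-type hearts did. The median PSI per library was 0.0509, 0.00494 and 0.0253 in wild-type, 0.0298, 0.0619 and 0.0221 in heterozygous and 0.88, 1 and 0.921 in homozygous hearts. Of the 68 tested parts in this run, 67 were called in the homozygous comparison and 1 in the heterozygous one. That part was 190 (87 bases), which had PSI of 0.27, 0.0284 and 0.104 in wild-type and 0.736, 0.746 and 0.725 in heterozygous hearts (difference 0.602, adjusted p = 0.0172), while its neighbours stayed low. Parts 231, 240 and 242, of 75 to 84 bases, were called in the run from 230 to 250, with differences of 0.529, 0.675 and 0.668. They were not alone there. Of the 20 tested parts, 15 had heterozygous libraries wholly above the wild-type ones, where 4.17% of all tested parts did. With the shared exclusion reads of wild-type replicate 2, described below, subtracted, 12 did. Heterozygous means in this run ran from 0.00974 to 0.883, with library medians of 0.132, 0.162 and 0.155.

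**Figure D1:**
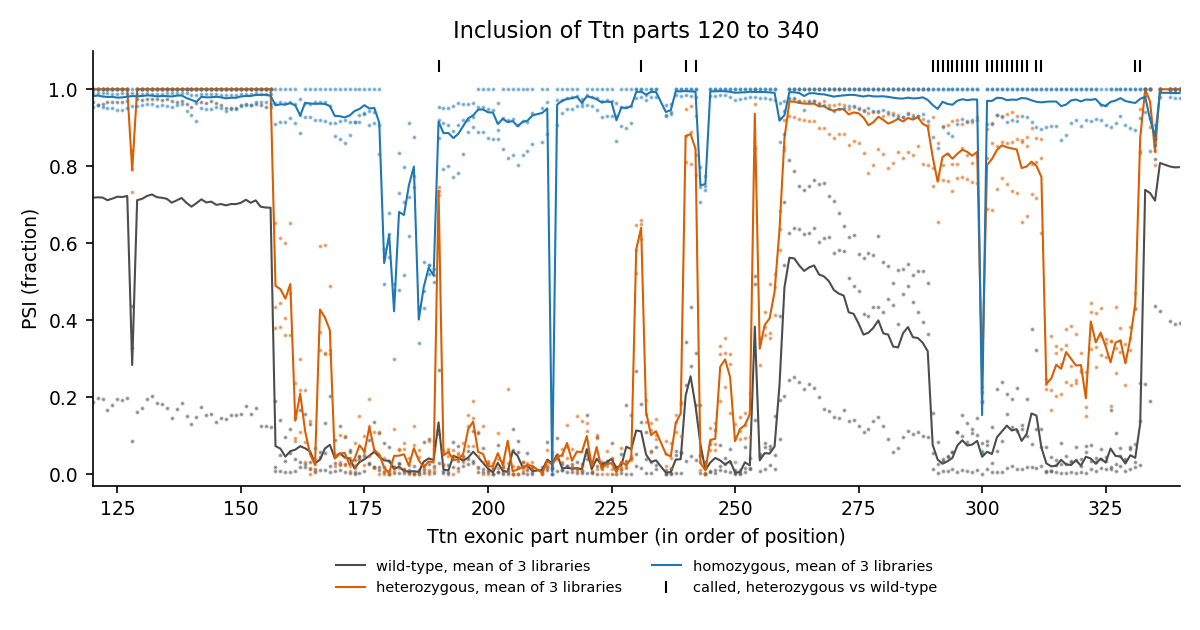
PSI of Ttn parts 120 to 340 (vertical axis, fraction) against part number in order of position (horizontal axis). Dots are libraries, lines are means of 3 libraries for wild-type, heterozygous and homozygous hearts, and ticks at the top mark the 27 parts called between heterozygous and wild-type hearts. The heterozygous line is near the homozygous one in parts 290 to 312, intermediate in parts 313 to 330 and near the wild-type one over most of parts 161 to 229. Wild-type replicate 2 gives the low grey dots where the other libraries are near 1.

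Of the 148 Ttn parts called in homozygous hearts, 78 had a heterozygous mean PSI under 0.2, 34 had one from 0.2 to below 0.6 and 36 had one of at least 0.6. The homozygous and heterozygous comparisons share the wild-type libraries. Called Ttn parts of the heterozygous comparison had lengths of 62 to 564 bases. Of the 27, 25 were a multiple of 3, where 288 of the 375 tested Ttn parts were. The exceptions, parts 304 (217 bases) and 305 (62 bases), adjoin each other without a gap. Each called part had at least 38 reads in every library. The level of Ttn as a whole was 2503, 1627 and 2427 CPM in wild-type and 1904, 1621 and 1831 CPM in heterozygous hearts (log2 fold change -0.29, adjusted p = 1), and the groups overlapped.

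In wild-type replicate 2, almost all inner Ttn parts had 339 exclusion reads in common, where the other libraries held 0 to 4. This set its PSI low over the whole gene. The parts that are mostly included were touched most. In parts 1 to 160 the median PSI was 1, 0.187 and 0.972 in wild-type and 1 in each heterozygous library, and that of wild-type replicate 2 was 1 once the shared reads were subtracted. Over all 375 tested parts, 132 (35.2%) had heterozygous libraries wholly above the wild-type ones and 0 wholly below, where 4.17% of all tested parts were above and 4.31% below. With the reads subtracted these were 108 above and 1 below, and the median difference over the gene went from 0.267 to 0.0107. The called run hardly moved: the median difference of parts 290 to 312 was 0.745 as deposited and 0.719 with the reads subtracted, and 30 Ttn parts were then called. In parts 251 to 289 the libraries had medians of 0.561, 0.124 and 0.456 in wild-type and 0.939, 1 and 0.838 in heterozygous hearts as deposited. There, wild-type replicate 2 was at 0.678 with subtraction, the median difference went from 0.48 to 0.324, and all 39 parts kept heterozygous libraries above the wild-type ones.

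Camk2d (ENSMUSG00000053819, chromosome 3, plus strand), a calcium- and calmodulin-dependent kinase whose isoforms differ in a variable linker, was the other listed RBM20 target with a called part. Its parts 49 and 50 together form an exon of 60 bases, which 6 annotated transcripts hold and which is shown because both of its parts were called. Capitals mark part 50.
Camk2d, exon of parts 49 and 50, chr3:126599506-126599565: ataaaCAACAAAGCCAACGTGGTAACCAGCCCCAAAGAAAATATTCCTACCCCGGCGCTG
Part 50 had PSI of 0.0906, 0.142 and 0.158 in wild-type, 0.599, 0.583 and 0.606 in heterozygous and 0.835, 0.866 and 0.871 in homozygous hearts. The 3 heterozygous libraries were close to each other and lay between the other groups, and the difference from wild-type was 0.466 (SE 0.0433, adjusted p = 0.00891). Part 49 gave a difference of 0.44 (adjusted p = 0.00891). Both count the same exon and are not separate results.

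Nearby parts of Camk2d moved less. Part 47 (30 bases) had PSI of 0.252, 0.25 and 0.234 in wild-type and 0.141, 0.0991 and 0.158 in heterozygous hearts (difference -0.113, adjusted p = 0.279), and the adjoining part 46 had a difference of -0.111 (adjusted p = 0.237). Part 53 (42 bases) had 0.497, 0.506 and 0.542 in wild-type and 0.657, 0.694 and 0.706 in heterozygous hearts (difference 0.17, adjusted p = 0.917). Groups did not overlap at these parts, but none was called. The level of Camk2d as a whole was 123 to 158 CPM in wild-type and 123 to 160 CPM in heterozygous hearts.

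Ldb3 (ENSMUSG00000021798, chromosome 14), a Z-disc scaffold protein, had a graded pattern that did not pass the test. Its part 18 (8 bases) had PSI of 0.0574, 0.0659 and 0.0596 in wild-type, 0.301, 0.287 and 0.269 in heterozygous and 0.727, 0.698 and 0.745 in homozygous hearts. Its part 21 (350 bases) went the other way, with 0.976, 0.973 and 0.977 in wild-type, 0.816, 0.824 and 0.84 in heterozygous and 0.456, 0.465 and 0.436 in homozygous hearts. At both parts the 3 groups were apart from each other, and no library had fewer than 6722 reads. The difference between heterozygous and wild-type hearts was 0.225 at part 18 (SE 0.0334, adjusted p = 0.101) and -0.149 at part 21 (adjusted p = 0.434). Over 21 alternatives the adjusted p of part 18 ranged from 0.000244 to 0.436, and 4 of them gave a call. Of the 10 tested Ldb3 parts, 4 had heterozygous libraries wholly above and 3 wholly below the wild-type ones. Over all tested parts, 4.17% were wholly above and 4.31% wholly below, and neighbouring parts of a gene share reads.

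Ryr2 (ENSMUSG00000021313, chromosome 13), through which the sarcoplasmic reticulum releases calcium, differed little with 1 edited allele. Part 32 (24 bases) had PSI of 0.0254, 0.0248 and 0.0188 in wild-type, 0.0485, 0.0586 and 0.0487 in heterozygous and 0.36, 0.381 and 0.34 in homozygous hearts. The heterozygous libraries were above the wild-type ones by a mean of 0.0289 (SE 0.0173, adjusted p = 0.968), which is not a call.

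Tnnt2 (ENSMUSG00000026414, chromosome 1), cardiac troponin T of the thin filament, had its smallest p at part 14 (11 bases). PSI was 0.76, 0.84 and 0.833 in wild-type, 0.99, 0.999 and 1 in heterozygous and 0.852, 0.804 and 0.914 in homozygous hearts. The heterozygous libraries lay above both other groups, and the difference from wild-type was 0.185 (adjusted p = 0.248), called under 1 of 21 alternatives.

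**Figure D2:**
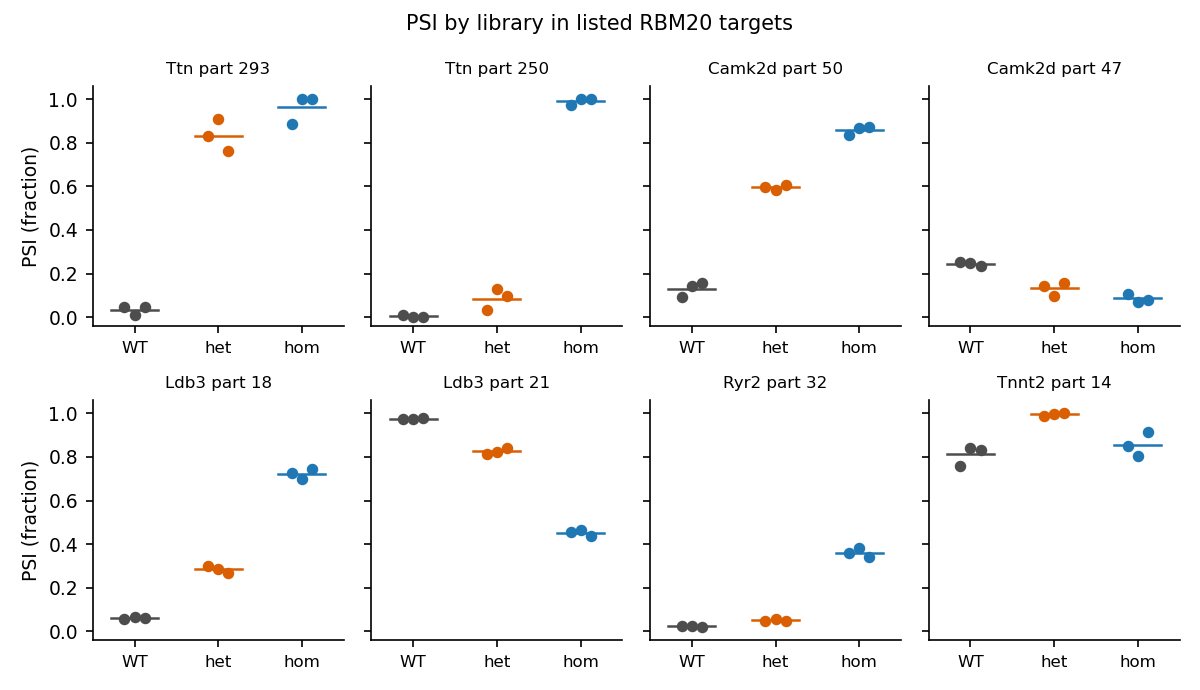
PSI (vertical axis, fraction) of 8 parts of listed RBM20 targets in wild-type (WT), heterozygous (het) and homozygous (hom) hearts, with a dot per library and a line at the group mean. Heterozygous libraries sit near the homozygous ones at Ttn part 293, near the wild-type ones at Ttn part 250 and Ryr2 part 32, and between the groups at Camk2d part 50 and Ldb3 parts 18 and 21.

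The target list holds 28 genes, of which 26 could be tested under their own identifier and 2 had a called part. Fhod3 had no tested part, and Nexn, counted under a joined identifier, had 0 of 13 parts called by limma. Over the 344 tested parts of targets other than Ttn, 44 had heterozygous libraries wholly above and 18 wholly below the wild-type ones. That is 18% of the parts, where 8.47% of all tested parts did not overlap between the groups. The median difference of these 344 parts was 0.000432 and that of all tested parts was 0. Parts of a gene share reads, so these counts are a description.

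The other 21 targets were not called, and adjusted p was at least 0.968 even at the part of each that had the smallest p. Lmo7, a cell junction protein, had PSI of 0.462, 0.379 and 0.352 in wild-type and 0.549, 0.501 and 0.545 in heterozygous hearts at part 23 (difference 0.134). Mlip, a lamin-interacting muscle protein, had 10 of 21 parts wholly above wild-type, where 4.17% of all tested parts were and parts of a gene share reads, the one with the smallest p being part 19 (difference 0.0729). Dtna, Camk2g, Sh3kbp1 and Ktn1 had heterozygous libraries above the wild-type ones at their part, by 0.0162 to 0.101. Trdn, Myh7, Lrrfip1 and Cacna1c had them below, by a PSI of between 0.0252 and 0.0906. At Pdlim3, Pdlim5, Tpm1, Myom1, Rtn4, Enah, Kcnip2, Spen and Dst the groups overlapped at the part with the smallest p.

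Other gene groups had few or no calls. Sarcomere and Z-disc genes held 27 called parts among 598, all in Ttn, and calcium handling genes held 2 among 165, both in Camk2d. Over all tested parts, 0.0755% were called, so 0 calls in a short list say little. Splicing regulators, proteins that themselves guide exon choice, held 0 called parts by limma among 165, with groups apart at 29 of them (17.6%), where groups were apart at 8.47% of all tested parts. Cardiac stress genes held 0 among 52, with groups apart at 3 (5.77%). Atrial markers held 0 among 37, with groups apart at 1 (2.7%). In the marker lists of fibroblasts, leukocytes, erythroid cells, vessels and epicardium 0 parts were called, among 7 to 20 tested parts per list. Groups were apart at 4 of 18 leukocyte parts (22.2%), 4 of 20 endothelial parts (20%) and 3 of 17 smooth muscle and pericyte parts (17.6%). They were apart at 1 of 19 fibroblast parts (5.26%), 1 of 13 erythroid parts (7.69%) and 0 of 7 epicardial parts.

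Outside the target list, 10 gene identifiers had a called part. In 8 of them all heterozygous and homozygous libraries had a PSI between 0.906 and 1, above all wild-type libraries. Zfp458 part 6 (3872 bases, chromosome 13), of a zinc finger gene, had PSI of 0.412, 0.297 and 0.238 in wild-type, 1 in all 3 heterozygous and 1 in all 3 homozygous libraries (adjusted p = 0.00432). Ccdc173 part 9 (chromosome 2) had 0.533, 0.444 and 0.347 in wild-type, 1, 0.93 and 1 in heterozygous and 1 in all 3 homozygous libraries (adjusted p = 0.00853). These were thinly covered, with as few as 19 and 10 reads in a library. At Zfp458, 2 exclusion reads in each wild-type library, against 0 in all others, carry the difference of 0.684. At Ccdc173 part 9 the wild-type libraries held 7, 4 and 8 exclusion reads. Part 5 of Ccdc173 was also called by limma, with a difference of 0.358 (adjusted p = 0.0233).

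Msh3 part 48 (130 bases, chromosome 13), in a gene for a DNA mismatch repair protein, had 0.505, 0.562 and 0.444 in wild-type and 0.941, 0.967 and 0.957 in heterozygous hearts, with a homozygous mean of 0.975. Pcnt, the gene of a centrosome scaffold protein, is joined with AC141477.1 in the table (chromosome 10), and its part 15 (174 bases) had 0.714, 0.697 and 0.696 in wild-type and 1, 1 and 0.99 in heterozygous hearts, with a homozygous mean of 0.999. The adjusted p was 0.00808 at Msh3 and 0.00432 at Pcnt, where parts 17 and 18 were also called. Ppa2, a mitochondrial pyrophosphatase, had 0.774, 0.798 and 0.795 in wild-type and 0.981, 0.982 and 0.97 in heterozygous hearts at part 8 (54 bases, chromosome 3), on at least 1322 reads per library.

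H2bc4, a histone H2B gene, had 0.801, 0.809 and 0.822 in wild-type and 0.991, 0.995 and 0.994 in heterozygous hearts at part 1 (chromosome 13). Aox1, an aldehyde oxidase, had 0.829, 0.847 and 0.83 in wild-type and 1, 0.987 and 1 in heterozygous hearts at part 26 (chromosome 1). Trim12a, of a family of antiviral TRIM proteins, had 0.711, 0.652 and 0.691 in wild-type and 0.991, 0.938 and 0.937 in heterozygous hearts at part 13 (chromosome 7). The adjusted p was 0.00862 at H2bc4, 0.00891 at Aox1 and at Ppa2, and 0.0233 at Trim12a. Homozygous means were 0.987 at H2bc4, 0.995 at Aox1 and 0.936 at Trim12a. Zfp458, H2bc4 and Trim12a have close copies in the mouse genome, so reads may be split among them, and values there are uncertain.

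In the other 2, the heterozygous libraries lay apart from both other groups. The locus joined from Npff, Gm28047 and Atf7 (chromosome 15) had PSI of 1 in all wild-type and all homozygous libraries at part 7 and 0.772, 0.847 and 0.764 in heterozygous hearts (adjusted p = 0.0249), and it was the 1 called part that fell. Exclusion reads there numbered 4, 2 and 4 in the heterozygous libraries, so few reads carry this value. Part 21 of the pseudogene Ppp4r1l-ps, joined with ENSMUSG00000121504 (chromosome 2), had 0 in all wild-type libraries, 0.153, 0.183 and 0.141 in heterozygous and 0.0402, 0.0737 and 0.0538 in homozygous hearts (adjusted p = 0.00891). It rested on 5, 11 and 7 inclusion reads in the heterozygous libraries, and the homozygous libraries also lay above the wild-type ones.

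Each of the 12 called identifiers lost its call under some alternatives, from 2 of 20 at Pcnt, 3 of 21 at Camk2d part 50 and 4 of 21 at Ttn part 293 to 12 of 20 at the Npff locus and 13 of 21 at Trim12a. The fit of only the 2 groups and the fit with a term for the replicate number left 0 calls by limma, and the fit without heterozygous replicate 1 left 3. At Ttn part 293 the call was lost in these 3 fits and on the logit scale, with adjusted p of 0.0519, 0.078, 0.0572 and 0.146, and its difference was 0.763 to 0.835 over all alternatives. At Camk2d part 50 it was lost in the same 3 fits, with adjusted p of 0.0519, 0.101 and 0.0611, and its difference was 0.446 to 0.479.

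**Figure D3:**
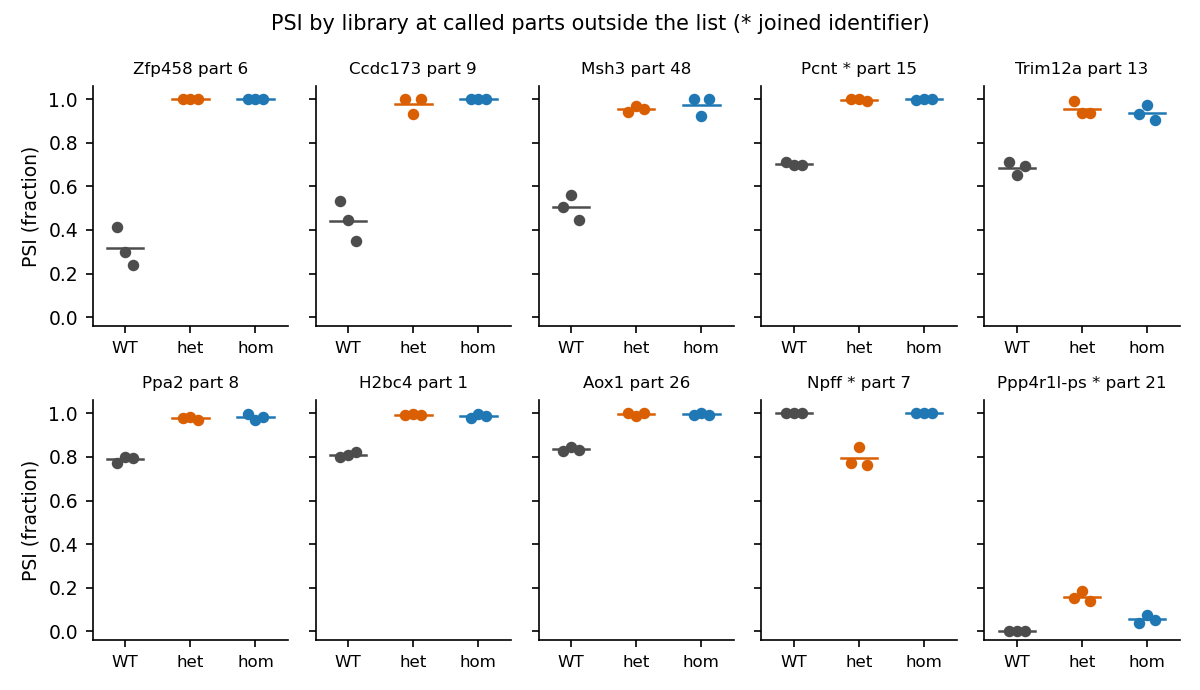
PSI (vertical axis, fraction) at 1 called part of each of the 10 gene identifiers outside the target list, with a dot per library and a line at the mean of wild-type (WT), heterozygous (het) and homozygous (hom) hearts. At the first 8, heterozygous and homozygous libraries lie between 0.906 and 1, above all wild-type libraries, and at Npff and Ppp4r1l-ps the heterozygous libraries differ from both other groups.

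No gene level passed the edgeR test. Of 22049 genes, 0 (0%) were called by edgeR at an adjusted p under 0.05, and 712 had an unadjusted p under 0.05, which is 3.23%. Groups did not overlap at 1822 genes (8.26%), of which 845 (3.83%) were higher and 977 (4.43%) lower in heterozygous hearts. DESeq2 called 20 genes, 13 higher and 7 lower, and edgeR with no filter on low counts called 54, 40 higher and 14 lower. The smallest adjusted p in the filtered fit was 0.813.

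Among the genes that DESeq2 called, 3 that also stood apart in homozygous hearts were chosen after their values were seen. Edn3, which encodes the peptide endothelin-3, had 0.618, 1.05 and 1.72 CPM in wild-type, 3.42, 3.11 and 3.33 in heterozygous and 15.1, 18.8 and 20.05 in homozygous hearts. Its log2 fold change was 1.54 (SE 0.281), with an adjusted p of 0.813 by edgeR and of 1.66e-05 by DESeq2. Cenpf, a kinetochore protein of dividing cells, had 13.3, 15.4 and 12.9 CPM in wild-type, 8.05, 7.50 and 5.37 in heterozygous and 2.56, 1.88 and 2.93 in homozygous hearts, with adjusted p of 0.813 and 0.00132 by these tools. Pacsin1, a membrane-bending protein, had 1.47, 0.761 and 0.935 CPM in wild-type and 0.138, 0.0928 and 0.267 in heterozygous hearts, with adjusted p of 0.813 and 5.34e-06. In bulk samples, fewer cells of a type and less RNA per cell cannot be told apart.

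The cardiac stress genes, which rise in overloaded or failing hearts, did not pass the test in heterozygous hearts. Of 12 measured, 6 had a higher and 6 a lower estimate, 0 were called by edgeR and 2 had an unadjusted p under 0.05, Acta1 and Nppa. Nppa was called with no filter on low counts, and its values, which rest on 1 library, are given with the atrial genes. Acta1, skeletal actin, had 162.2, 208.6 and 240.5 CPM in wild-type, 242.4, 338.1 and 286.8 in heterozygous and 1384, 1920 and 1008 in homozygous hearts. Its heterozygous libraries were just above the wild-type ones, with a log2 fold change of 0.50 (SE 0.219, adjusted p = 1).

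Nppb, the B-type natriuretic peptide, had 103.9, 86.01 and 104.6 CPM in wild-type and 114.2, 153.8 and 91.08 in heterozygous hearts (log2 fold change 0.29, adjusted p = 1). Ankrd1, a stretch-responsive muscle protein, had 1018, 579.7 and 898.0 CPM in wild-type and 805.6, 604.5 and 777.3 in heterozygous hearts. Myh7, the slow myosin heavy chain, had 1280, 1316 and 1631 against 1260, 1171 and 1338 CPM. The groups overlapped at these 3 genes and also at Xirp1, Xirp2, Ccn2, Gdf15, Mt2, Postn and Tnni1, whose log2 fold changes ran from -0.45 to 0.37. Homozygous hearts held 186.3 to 626.1 CPM of Nppb and 1676 to 2785 CPM of Ankrd1.

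Other gene groups had 0 genes called by edgeR as well. Sarcomere and Z-disc genes had a median log2 fold change of 0.003 over 35 genes, with 4 at an unadjusted p under 0.05. Calcium handling genes had a median of -0.03 over 27 genes, with 2 at an unadjusted p under 0.05, and splicing regulators a median of -0.004 over 22, with 1, which was Rbm20. The median over all genes was -0.004.

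Atrial genes stood out in 1 heterozygous library. Atria and ventricles use different muscle genes, so the amount of atrial RNA in a heart sample can be read from genes such as Myl7 and Myl4, atrial myosin light chains, Sln, which encodes sarcolipin, an inhibitor of the calcium pump, and Nppa, the atrial natriuretic peptide. Nppa had 86.5, 89.7 and 86.4 CPM in wild-type and 53.6, 94.2 and 1055 in heterozygous hearts, the last in replicate 3. It was also at 541.9, 519.6 and 382.3 CPM in the 3 homozygous libraries, so Nppa alone does not mark this library.

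The other leading genes were high in heterozygous replicate 3 only. Myl7 had 28.1, 3.25 and 5.88 CPM in wild-type, 0.0933, 1.42 and 356.6 in heterozygous and at most 5.53 in homozygous hearts. Myl4 had 54.3, 8.27 and 8.71 in wild-type, 1.90, 3.99 and 576.4 in heterozygous and at most 10.2 in homozygous hearts. Sln had 7.02, 0.361 and 0.681 in wild-type, 0, 0.244 and 74.1 in heterozygous and at most 1.16 in homozygous hearts. Wild-type replicate 1 held the next highest level of these 3 genes, below heterozygous replicate 3 and above the rest, so wild-type libraries also varied.

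Dkk3, a secreted glycoprotein, had 10.7, 4.75 and 5.75 CPM in wild-type and 0.874, 1.83 and 61.8 in heterozygous hearts. Stard10, a lipid transfer protein, had 56.5, 35.1 and 36.7 against 46.1, 42.1 and 157.4 CPM. Fgf12, an intracellular modulator of sodium channels, had 1.25, 0.201 and 0.319 against 0.256, 0.344 and 11.5 CPM. Over the 20 measured atrial markers, heterozygous replicate 3 was the highest of the 6 libraries at 16 genes, where it was the highest at 15.8% of all genes tested. It was not the highest at Hcn4 and Mpped2, which were highest in wild-type replicate 3, or at Kcna5 and Tbx3, which were highest in heterozygous replicate 2.

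Of the 24 atrial markers listed, Bmp10 and Dhrs9 did not pass the filter on low counts, and Pam and Pcsk6 carry joined identifiers. The one that holds Pam had 635.8, 527.2 and 591.6 CPM in wild-type and 495.4, 504.6 and 1321 in heterozygous hearts. Genes of heterozygous replicate 3 outside the list that were over 2-fold above all other libraries included Mybphl, a myosin-binding protein, with 51.1 CPM against at most 4.70, and the kinase gene Sbk3, with 33.7 CPM against at most 5.01. Both were named after their values were seen.

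**Figure D4:**
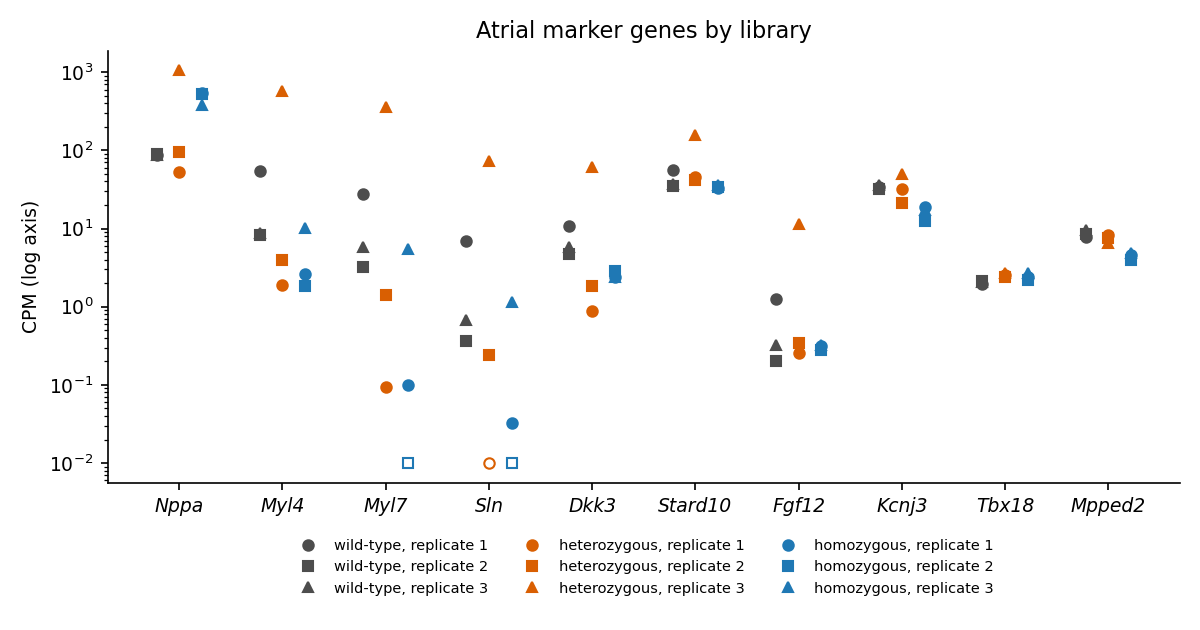
Level of 10 atrial marker genes (vertical axis, CPM on a log axis) in each of the 9 libraries, with colour for genotype and marker shape for replicate. Open symbols are values below 0.01 CPM, drawn at 0.01. Heterozygous replicate 3 is the highest library at Nppa, Myl4, Myl7, Sln, Dkk3, Stard10, Fgf12, Kcnj3 and Tbx18 and not at Mpped2.

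The summed level of the 20 atrial markers was 420.7, 320.2 and 333.1 CPM in wild-type, 271.9, 289.0 and 2523 in heterozygous and 724.7, 689.6 and 586.7 in homozygous hearts. Without Nppa it was 334.2, 230.5 and 246.7 in wild-type, 218.3, 194.8 and 1468 in heterozygous and 169.9 to 204.4 in homozygous hearts. The heterozygous mean was 1028 ± 1295 CPM and the wild-type mean 358.0 ± 54.7 CPM (SD, n = 3 each), a difference of 669.8 CPM with a two-sided exact permutation p of 1, where 3 against 3 cannot give less than 0.1. Without heterozygous replicate 3 the difference was -77.5 CPM (exact permutation p = 0.2), so the direction of the summed level rested on that library.

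Markers of other cell types were read beside it. The summed ventricular markers were 29030 CPM in heterozygous replicate 3, the lowest of the 9 libraries, against 30640 to 51480 in the others. Fibroblast markers were 2774 CPM there against 1911 to 2607 in the others, and cardiomyocyte markers were 52670 CPM, within the range of the others. Epicardial and mesothelial markers summed to 13.2 CPM against 7.10 to 17.5, and the 7 genes differed among themselves. Upk3b, a mesothelial membrane protein, was at 2.34 CPM there against at most 0.316, and Msln, Lrrn4, Krt19 and Rspo1 were also highest there. Wt1, an epicardial transcription factor, was at 4.32 CPM against 4.03 to 13.4, and Aldh1a2, a retinoic acid synthesis enzyme, at 2.60 against 2.28 to 4.36. The part of these cells in the results was not tested.

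This library moved the expression comparison for the atrial genes. Over the 20 markers the median log2 fold change was 0.23 with all libraries and -0.25 without heterozygous replicate 3, where the median of all genes was -0.004 and -0.013. The sign turned at 11 of the 20 markers and at 14.5% of all genes. Myl7 went from 3.27 to -4.02, Sln from 3.21 to -4.43, Myl4 from 3.03 to -3.01, Dkk3 from 1.61 to -2.38, Fgf12 from 2.77 to -0.98 and Nppa from 2.20 to -0.24 on the log2 scale. None of these values was called in either fit, with adjusted p of 1 in the first and 0.45 to 0.85 in the second. In the second fit the SE was 1.89 for Myl7 and 2.04 for Sln. The heterozygous levels left there were 0.0933 and 1.42 CPM for Myl7 and 0 and 0.244 CPM for Sln. Wild-type replicate 1 was the highest wild-type library at both genes, so these estimates are uncertain. With no filter on low counts, edgeR called Nppa (adjusted p = 6.34e-05), Myl4 (0.0157) and Stard10 (0.00802) as higher, with heterozygous replicate 3 included. Stard10 went from 0.94 to 0.04, while Tbx18, a transcription factor of the outer heart layer and sinus region, had 0.32 and 0.27.

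Across all genes, 477 had a log2 fold change of at least 1 with all libraries and 640 without heterozygous replicate 3. Of these, 338 were in both sets. Genes at -1 or below numbered 417 and 895. Among genes with group means that summed to at least 2 CPM, 24 had a log2 fold change of at least 1 with all libraries. In 19 of them heterozygous replicate 3 was over 2-fold above the other 5 libraries. Of the 24, 5 had a log2 fold change of at least 1 also without it. The number called by edgeR was 0 with and without this library, and the smallest adjusted p was 0.813 with it and 0.438 without it. Unadjusted p values under 0.05 numbered 712 with it and 1373 without it, where the filter on low counts was run again. Among the 22049 genes of the fit with all libraries, 1320 had such a p without it. Rbm20 had a log2 fold change of -0.48 with it and -0.56 without it, and Acta1 0.50 and 0.51. Splicing calls were 42 parts with it and 40 without it, with 27 and 21 in Ttn, and the parts higher numbered 41 and 31.

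**Figure D5:**
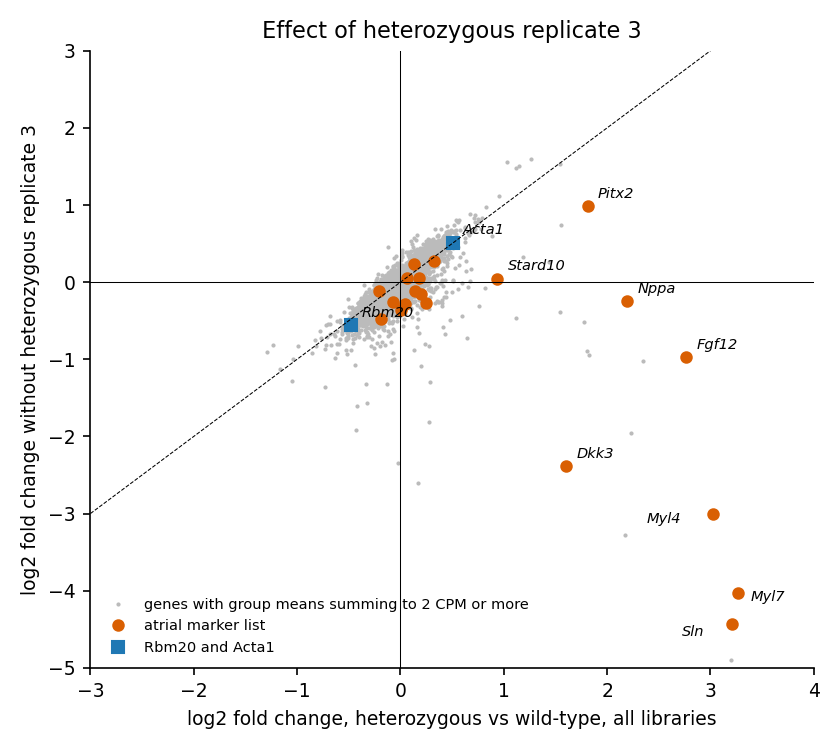
Log2 fold change of heterozygous against wild-type hearts with all libraries (horizontal axis) and without heterozygous replicate 3 (vertical axis), for genes with group means summing to at least 2 CPM (grey), the 20 measured atrial markers (orange) and Rbm20 and Acta1 (blue). The dashed line marks equal values and 2 grey genes lie outside the axes. Rbm20 and Acta1 lie near the line, while Myl7, Sln and Myl4 lie above 3 on the horizontal axis and at or below -3 on the vertical one.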

How the data were processed

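Heart RNA was made into libraries with a directional kit and read from both ends for 150 bases, per the labels' protocols. The authors deposited, for 480017 exonic parts on GRCm39, inclusion counts (reads of the part), exclusion counts (junction reads that skip it), the part length and the PSI as a fraction. The deposited PSI was recomputed as i/(i + e) to within 5.0e-07, where i is the inclusion count divided by the sum of the part length and 148 bases, and e is the exclusion count divided by 148 bases. The submitters' processing notes list cutadapt 1.8 and Salmon 1.2.1 without saying what each did. The tool that counted parts and its use of strand are not given in the sources used here, so overlapping and antisense genes cannot be told apart. Libraries were matched by the library number in their labels.

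PSI was fitted with limma 3.58.1 (variance trend) to the 9 libraries together (6 residual degrees of freedom), on 55648 parts with at least 10 reads in each library that reached a PSI of 0.05 somewhere and did not stay above 0.95 everywhere. Inclusion counts summed per gene identifier, in which a read can count in each part it spans, were fitted in edgeR 4.0.16 by its quasi-likelihood test, after filterByExpr and TMM scaling, with DESeq2 as an alternative. Adjusted p values are Benjamini-Hochberg values over all features tested. CPM values use TMM-scaled library sizes. The software was R 4.3.3, DESeq2 1.42.0, Python 3.11.15, pandas 2.3.3 and matplotlib 3.10.9.

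The comparison, the gene lists and the rule for named genes were chosen with earlier results of these data known. The rule named Rbm20, every listed target with a tested part (its called part with the largest difference, otherwise the part with the smallest p), every called gene outside the list, the called Ttn parts, and the measured atrial marker and stress genes. Parts of Ttn, Camk2d, Ldb3 and Tnnt2 beyond that rule were named after their values were seen. Alternatives varied the scale, model, filters, thresholds, normalization, libraries and shared identifiers. Whether a part is coding was not annotated. Single values of some listed targets are not reported here.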

Additional observations from a re-analysis of the deposited data

How the results depend on the processing

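The 42 called parts became 15 on the logit scale, 73 with a quasi-binomial model of the reads (52 in Ttn), 22 with no filter on constant parts, and 0 both when the homozygous libraries were left out of the fit and under the replicate block. Leaving out 1 of the 9 libraries gave 3 to 53. The other settings gave 36 to 63, among them 45 with the shared Ttn reads subtracted. The 0 called genes became 20 with DESeq2 and 54 with no filter on low counts, and stayed 0 under the other edgeR settings and each library left out. The cause of these shifts was not tested.

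Among values recomputed under every alternative, those that turned their sign were the PSI difference of Rtn4 part 6 (-0.0511 to 0.000304 over the libraries left out, above 0 without heterozygous replicate 2) and, without heterozygous replicate 3, 5 log2 fold changes of the 11 atrial markers that turned there. Over the libraries left out these ran from -0.24 to 2.72 for Nppa, -4.43 to 5.57 for Sln, -3.01 to 4.52 for Myl4, -4.02 to 4.71 for Myl7 and -2.38 to 2.17 for Dkk3. With the replicate block Sln was at -0.69 and Myl7 at -1.37. The summed atrial level differed by -77.5 to 1048 CPM over the libraries left out. The difference was 356.5 CPM without Nppa and 708.7 CPM without TMM factors.

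What same-numbered libraries share beyond the number is not stated in the labels. Their deviations from the group means correlated across parts at 0.0119, -0.000655 and 0.0328, for numbers 1, 2 and 3. Across genes these were -0.000515, 0.107 and 0.252. Such correlations cannot show whether a factor is shared. The replicate block gave 0 called parts and 0 called genes by limma and edgeR. Depth limits the thin parts, where a few reads set a PSI.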
